A study of Mus musculus with 474 samples.

Results

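The 78 genes described here encode proteins of the mitochondrial ribosome. They were taken by name, as every row of the deposited tables whose gene symbol is Mrpl or Mrps followed by a number and at most 1 lower-case letter, and they make up 78 of 20612 genes. The rule itself uses no expression value. By the nomenclature of the assembled particle, 51 of the products belong to the large subunit and 26 to the small subunit. The last of them, Mrps36, is known as KGD4, a component of the α-ketoglutarate dehydrogenase complex, and was kept because the rule is by name. All 78 are annotated as protein-coding, and all 78 passed the filter on low counts that left 18823 genes for testing.

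Mitochondria carry their own ribosomes, which translate the few messenger RNAs of the mitochondrial genome into core subunits of the respiratory chain. Every protein of these ribosomes is encoded in the nucleus, made on cytosolic ribosomes and imported, while the ribosomal RNAs are transcribed inside the organelle. Some of the proteins descend from those of bacterial ribosomes, and others were added during the evolution of mitochondria. Of the 78 genes, 46 encode proteins shared with bacteria and 31 encode proteins specific to mitochondria, leaving out Mrps36.

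RNA from skeletal muscle of Diversity Outbred mice, an outbred stock bred from several inbred founder strains so that each animal is genetically unique, was sequenced with 1 library per animal. Females and males, nearly equal in number, came from outbreeding generations 17, 18, 19, 21 and 23, with 45 to 50 animals of each sex in each generation. All animals were given a high-fat diet rich in sugar, with 45% fat, from soon after weaning and were killed as adults at a single age, so no group on another diet and no other age enters the comparisons. The tissue was intact muscle, and no transgene or drug distinguishes the groups.

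Total counts ranged from 35.9 to 165.7 M per library, with a mean of 81.5 ± 16.2 M (SD over all libraries). Marker genes of skeletal muscle, the labelled tissue, held 6.13% of all counts. In 5 libraries, 3 labelled female and 2 labelled male, the RNA of Xist or of the Y-linked gene Ddx3y was outside the limits set for the labelled sex. DO153 and DO347, labelled female, and DO308, labelled male, had almost none of either RNA. DO048, labelled female, had 122 CPM of Xist and 0.133 CPM of Ddx3y. DO193, labelled male, had 93.7 CPM of Ddx3y and 13.4 CPM of Xist. These 5 are called libraries at odds with their labelled sex, which does not mean that the label is wrong. They were kept with their labels, and results with and without them are given. Library names fell into 5 blocks of consecutive numbers, with 91 to 96 libraries each, and the sources do not say what the blocks are. In bulk tissue, fewer cells of a type and less RNA per cell cannot be told apart.

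The sequences shown here are the upstream regions of genes on which later results turn. Promoter windows from RefSeq (GRCm38.p6), with 250 bases before and 50 bases after the annotated start, were found for 69 of the 78 genes. The letters CCGGAAG, the core bound by ETS factors such as GABPA (also called NRF2), occurred on either strand in 26 of these promoters (37.7%), against 17.6% of the promoters of other tested protein-coding genes and 9.93% of promoters of all genes. The letters AAGATGGC, a core of the YY1 site, occurred in 12 (17.4% against 4.52%), and GCGCNTGCGC, the core of the NRF1 site with any base at N, in 13 (18.8% against 10.02%). The letters TATAAA were found in 5 (7.25% against 9.58%). At least 1 of the ETS, NRF1 and YY1 motifs was present in 43 of the 69 promoters (62.3%), against 28.4% of the others. All motifs were searched on both strands, and matches of different motifs were counted separately even where they overlapped. In nuclear genes of oxidative phosphorylation the ETS and NRF1 letters were each found in 26.6% of promoters, and in cytosolic ribosomal protein genes in 40.98% and 8.197%. These are matches of letters in a window and were not tested as binding sites. GC content did not set the members apart, with a median of 58.7% against 60.0%.

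The 250 upstream bases of 5 members are printed 5′ to 3′ on the gene's strand, with the NRF1 and ETS matches in capitals. They were chosen to show upstream NRF1 matches, an upstream ETS match and both. Mrpl12 had 1 NRF1 match at position -81, Mrps21 had 1 at -91 and Mrpl45 had 2. Mrps21 also had an ETS match in the downstream bases, which are not printed. Mrpl52 had 1 ETS match, read on the opposite strand at -47. Mrpl17 had an ETS match at -237 and an NRF1 match at -49. Positions are counted from the start of the gene, with -1 the base just before it.
Mrpl12 promoter, chr11:120484387-120484636, plus strand: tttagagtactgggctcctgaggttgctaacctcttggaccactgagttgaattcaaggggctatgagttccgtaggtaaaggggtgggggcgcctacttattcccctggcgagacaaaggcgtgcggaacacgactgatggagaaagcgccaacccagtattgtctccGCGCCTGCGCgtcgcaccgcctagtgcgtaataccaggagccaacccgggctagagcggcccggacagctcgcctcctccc
Mrpl45 promoter, chr11:97315466-97315715, plus strand: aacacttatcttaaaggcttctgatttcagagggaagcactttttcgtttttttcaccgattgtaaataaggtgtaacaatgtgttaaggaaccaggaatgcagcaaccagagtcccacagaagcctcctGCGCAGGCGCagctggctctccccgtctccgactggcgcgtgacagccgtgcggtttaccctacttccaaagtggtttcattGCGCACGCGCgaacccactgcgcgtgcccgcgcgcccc
Mrps21 promoter, chr3:95871515-95871764, minus strand: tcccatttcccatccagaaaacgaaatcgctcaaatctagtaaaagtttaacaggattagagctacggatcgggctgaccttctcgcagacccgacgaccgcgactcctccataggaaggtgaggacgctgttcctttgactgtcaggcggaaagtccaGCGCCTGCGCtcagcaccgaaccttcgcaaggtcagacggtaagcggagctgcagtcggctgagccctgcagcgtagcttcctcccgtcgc
Mrpl52 promoter, chr14:54426659-54426908, plus strand: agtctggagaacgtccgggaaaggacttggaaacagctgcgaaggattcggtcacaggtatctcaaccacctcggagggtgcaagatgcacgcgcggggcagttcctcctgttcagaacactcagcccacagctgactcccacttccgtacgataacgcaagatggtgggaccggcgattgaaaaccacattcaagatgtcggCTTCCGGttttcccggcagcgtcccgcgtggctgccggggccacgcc
Mrpl17 promoter, chr7:105811088-105811337, minus strand: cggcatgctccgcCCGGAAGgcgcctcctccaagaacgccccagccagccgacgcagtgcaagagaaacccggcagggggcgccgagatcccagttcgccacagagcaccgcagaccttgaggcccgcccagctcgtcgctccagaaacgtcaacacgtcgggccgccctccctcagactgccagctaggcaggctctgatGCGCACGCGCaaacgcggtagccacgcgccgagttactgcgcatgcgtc

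The 78 genes together took a steady, small share of the muscle's counts. Their summed level was 1965 ± 130 CPM (SD over all libraries; CPM are counts scaled to a common library size), or 0.197% of all counts. In females the sum ranged from 1619 to 2471 CPM with a median of 1968, and in males from 1516 to 2471 CPM with a median of 1958. The ranges thus overlapped almost fully. Medians by generation lay between 1942 CPM in generation 19 and 1985 CPM in generation 21. The 51 large-subunit genes summed to medians of 1354 CPM in females and 1349 CPM in males, and the 26 small-subunit genes to 573.2 and 571.3 CPM.

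**Figure D1:**
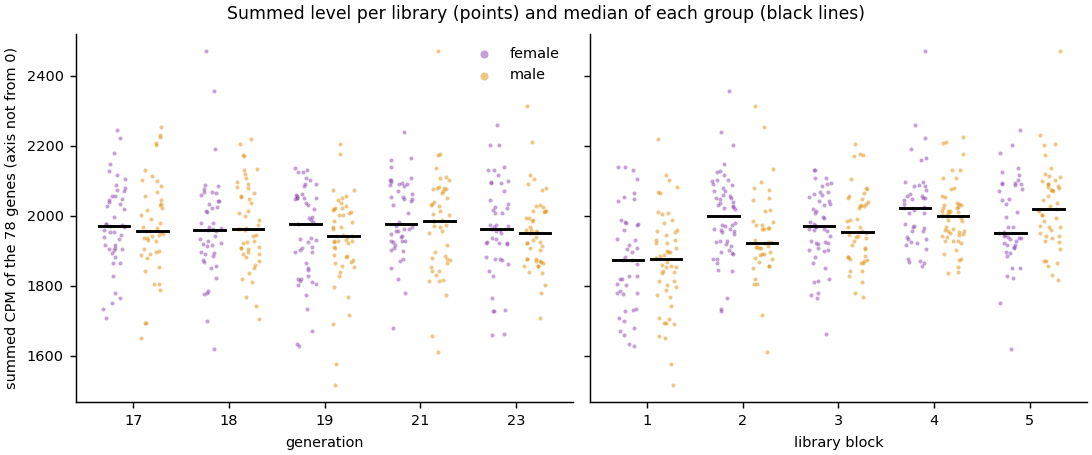
Summed level of the 78 genes in each library (points, CPM; the vertical axis does not start at 0), by outbreeding generation on the left and by library block on the right, with females and males beside each other and a black line at each median. Medians lie between 1942 and 1985 CPM over the generations and between 1874 and 2007 CPM over the blocks, and the sexes overlap throughout.

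Single members differed widely in level. Mean levels ran from 5.43 CPM for Mrpl23 to 87.1 CPM for Mrpl42, with a median member at 21.5 CPM. Divided by annotated exon length, the highest level was that of Mrpl42, a mitochondria-specific large-subunit protein, at 128.3 ± 22.1 CPM per kilobase (SD over all libraries), followed by Mrps21 (bS21m) at 96.6 ± 12.3. The order went on with Mrpl33 at 74.0, Mrpl30 at 57.8 and Mrps36 at 53.4 CPM per kilobase. Intervals of 1 SD around the means met between every pair of neighbours among these 5. The genes were measured in the same libraries, and the difference between neighbours within an animal was not tested. The lowest values per length were 3.07 CPM per kilobase for Mrpl17, 3.14 for Mrpl57, 3.20 for Mrps26, 3.76 for Mrpl19 and 4.03 for Mrps35, genes whose annotated exons together are long for a short protein. Such a value spreads reads over annotated bases that the main transcript may not use, so the order is a description of annotation and level jointly.

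Most members varied little from animal to animal. The coefficient of variation of CPM had a median of 13.0% over members. After sex and generation were fitted to the deposited variance-stabilised values (VST, a log2-like scale), the residual SD of 58 of the 78 members was below that of the median gene, and the median member stood at percentile 23.9 of all tested genes. The smallest residual SDs were those of Mrps5 (uS5m) at 0.097, Mrpl24 (uL24m) at 0.10, Mrpl49 at 0.11, Mrps23 at 0.11 and Mrpl32 (bL32m) at 0.12. At the other end stood Mrpl23 at 1.12, percentile 99.2 of all genes, then Mrps36 at 0.32, Mrpl9 at 0.30, Mrpl55 at 0.29 and Mrpl15 at 0.28. Mrpl23 was thus a case of its own among the members.

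Mrpl23 encodes uL23m, which lies by the exit of the peptide tunnel. The gene is at chr7:142532686-142540747 on the plus strand (GRCm38), and the deposited table also holds Mrpl23-ps1, a processed pseudogene at chr2:74591330-74591909 on the minus strand. In GENCODE M21 the coding sequence of the first annotated Mrpl23 transcript, 146 codons long, is present without a difference in the pseudogene, within a run of 540 identical bases. In the reference sequence, reads from that run cannot be placed by their letters alone. The first 300 coding bases, the same in both genes, are printed here to show the stretch that the reads share.
Mrpl23 and Mrpl23-ps1, coding bases 1 to 300: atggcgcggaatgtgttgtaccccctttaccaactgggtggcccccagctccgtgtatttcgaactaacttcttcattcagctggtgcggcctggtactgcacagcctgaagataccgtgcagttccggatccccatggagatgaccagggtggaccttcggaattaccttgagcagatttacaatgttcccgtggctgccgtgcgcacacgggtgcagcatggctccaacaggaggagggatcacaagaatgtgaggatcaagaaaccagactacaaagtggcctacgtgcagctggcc

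Counts of the gene and of its copy moved in opposite directions and fell into separate clusters of animals. Mrpl23 had 0.200 CPM in the lowest library, 1.66 in the median and 31.8 in the highest, with a coefficient of variation of 120%. Mrpl23-ps1 ranged from 0.572 to 34.2 CPM with a median of 22.2. Their sum ranged from 11.1 to 37.0 CPM with a median of 26.8, and its coefficient of variation was 14.9%, near that of the other members. No library had a Mrpl23 level between 2.87 and 4.35 CPM or between 14.9 and 17.1 CPM. Below the lower gap were 60.8% of the libraries, in which Mrpl23-ps1 had 10.7 to 34.2 CPM. Between the gaps were 33.5% (159 libraries), with 7.41 to 25.6 CPM of Mrpl23-ps1, and above the upper gap were 27 libraries, with 0.572 to 5.53 CPM. Both sexes were in every cluster, with 144, 79 and 12 females and 144, 80 and 15 males. The genotypes of the animals were not used here, and whether the clusters follow founder alleles at either gene was not tested. Because of the clusters, no correlation is given for Mrpl23 by itself.

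**Figure D2:**
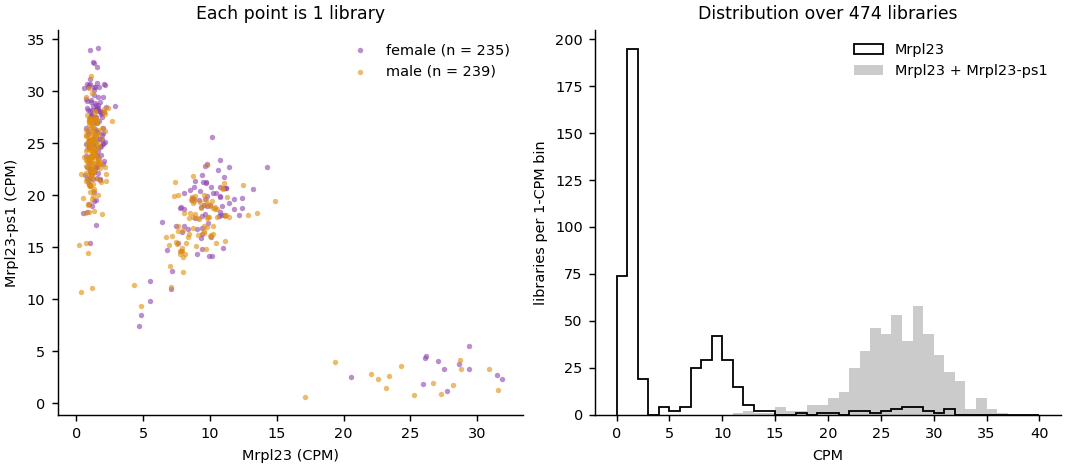
Left, level of Mrpl23 against that of its processed pseudogene Mrpl23-ps1 in each library (CPM, points coloured by labelled sex). Right, number of libraries per 1-CPM bin for Mrpl23 (line) and for the sum of both genes (filled). The Mrpl23 levels form 3 clusters with 60.8%, 33.5% and 5.70% of the libraries, while the sum forms a single peak around its median of 26.8 CPM.

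Other members also have near-identical copies in the genome. In all, 24 members matched separate genes over at least 150 coding bases at 90% identity or more, with 42 copies among them. Mrps36 had 8 copies, Mrpl30 had 4 and Mrps21 had 3. Only 3 of the 42 copies are rows of the deposited table (Mrpl23-ps1, Gm5776 for Mrps33 and Gm42525 for Mrpl32), and counts of the others are not used here. In addition, 7 members share coding sequence with an overlapping gene of the table, such as Mrpl43 with Twnk, the mitochondrial DNA helicase, and Mrps6 shares it with Gm49711, which is not a row used here. Mrps18b has a copy of both kinds. Levels of all these members are uncertain to that extent.

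The main comparison asked which members differed between the sexes across all animals. Using edgeR's quasi-likelihood test with generation as a covariate, 32 of the 78 members (41.03%) were called at a Benjamini-Hochberg adjusted p under 0.05, against a background of 55.0% of all 18823 genes tested. Of these, 15 (19.2%) were higher in males, where 24.4% of all genes were, and 17 (21.8%) were lower in males, where 30.6% were. The other 46 were not called. The median log2 difference of the members, male minus female, was 0.00042, and that of all tested genes was -0.0139. The called differences were small, from -8.99% to 9.82% in males relative to females, and the female and male ranges overlapped for every member given here. The labels do not tie the libraries to litters or cages, so the p-values measure the spread among these animals.

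The split between the directions depended on the scaling and on the covariates. With total counts in place of TMM factors 5 members were higher and 32 lower in males, where 17.7% and 39.7% of all genes were. With TMM factors and marker-gene scores as covariates 5 members were higher and 28 lower, where 22.4% and 24.4% of all genes were. In those fits 22 of the 32 members kept their call. With libraries at odds with their labelled sex left out, 33 members were called, 32 of them shared.

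Mrpl14 had the largest difference toward males. It encodes uL14m, a large-subunit protein that faces the small subunit. Its level ranged from 9.99 to 34.2 CPM in females with a median of 22.7, and from 12.2 to 36.5 CPM in males with a median of 24.8. The male median was above the female one while the ranges overlapped, and the log2 difference was 0.14 (SE 0.024, edgeR adjusted p = 2.66e-07). Mrps9 (uS9m, which reaches toward the P-site transfer RNA) ranged from 18.2 to 43.1 CPM with a median of 24.5 in females and from 19.1 to 39.8 CPM with a median of 26.5 in males (log2 difference 0.11, SE 0.021, edgeR adjusted p = 1.88e-06). Mrpl45, the homologue of mL45, which fastens the ribosome to the inner membrane, ranged from 28.6 to 53.0 CPM with a median of 38.3 in females and from 29.6 to 58.8 CPM with a median of 40.3 in males (log2 difference 0.09, SE 0.013, edgeR adjusted p = 3.71e-10).

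Mrpl20 (bL20m) and Mrpl55 (bL31m) were also higher in males. The Mrpl20 medians were 15.8 CPM in females and 16.8 CPM in males, with a log2 difference of 0.10 (edgeR adjusted p = 1.12e-06). For Mrpl55 they were 11.9 and 12.7 CPM, with a log2 difference of 0.11 (edgeR adjusted p = 0.000867). The 3 remaining members named in this direction were Mrpl46 of the central protuberance, Mrps11 (uS11m) of the small-subunit platform and Mrpl1 (uL1m) of the L1 stalk, with log2 differences of 0.06, 0.06 and 0.05 (edgeR adjusted p = 0.00225, 0.00206 and 0.0144). Mrpl46 and Mrps11 lie on opposite strands and overlap, and reads from the overlapping bases could not be told apart if strand was not used in counting. The study combined both read ends and aligned them as single-ended reads, and its methods name no use of strand. Mrpl55, Mrpl46, Mrps11 and Mrpl1 each lost their call under at least 1 of the whole-series alternatives.

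Mrps21, the homologue of bS21, had the largest difference in the other direction. Its promoter printed above had an NRF1 match, as did that of Mrpl45, which was higher in males. The level of Mrps21 ranged from 31.1 to 66.2 CPM in females with a median of 49.4, and from 32.5 to 58.5 CPM in males with a median of 45.3. The log2 difference was -0.14 (SE 0.016, edgeR adjusted p = 2.5e-15). Mrpl27, or bL27m, whose N-terminal part lies near the P-site transfer RNA, ranged from 8.96 to 17.6 CPM with a median of 12.7 in females and from 8.34 to 16.3 CPM with a median of 11.7 in males (log2 difference -0.12, SE 0.015, edgeR adjusted p = 1.96e-12). Mrps36 ranged from 17.9 to 62.2 CPM with a median of 39.6 in females and from 17.5 to 60.1 CPM with a median of 36.7 in males (log2 difference -0.11, SE 0.030, edgeR adjusted p = 0.00129).

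The remaining named members lower in males belonged to both subunits. Mrpl57 (mL63) and Mrps28 (bS1m) had log2 differences of -0.11 and -0.10 (edgeR adjusted p = 5.59e-06 and 1.09e-06). Mrpl34 (bL34m) and Mrpl28 (bL28m) each had a log2 difference of -0.10 (edgeR adjusted p = 0.00167 and 3.39e-05). Mrpl44, which has a fold like that of RNase III, had a log2 difference of -0.09 (edgeR adjusted p = 1.96e-09). These 8 members lower in males were called in all 11 whole-series fits.

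**Figure D3:**
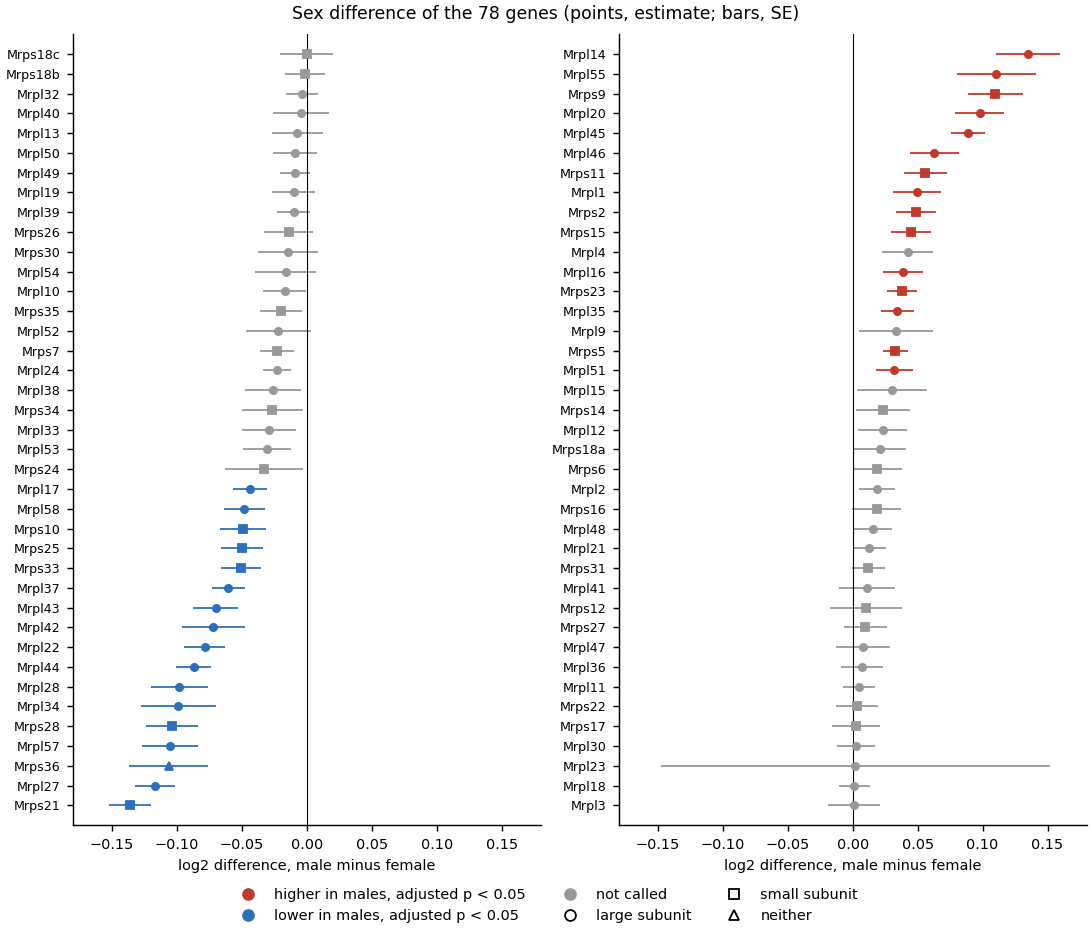
Log2 difference between males and females for each of the 78 genes (points, edgeR estimate; bars, SE), ordered by value over both panels, with circles for the large subunit, squares for the small subunit and a triangle for Mrps36. Genes called higher in males (15) and lower in males (17) lie at the ends, between -0.14 and 0.14, and Mrpl23 has the widest bar, at 0.15.

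Both subunits and both classes of proteins held calls in each direction. In the large subunit 9 genes were higher and 11 lower in males of 51, and in the small subunit 6 were higher and 5 lower of 26. Among genes shared with bacteria 11 were higher and 8 lower of 46, and among mitochondria-specific genes 4 were higher and 8 lower of 31. Calls took 39.2% of the large-subunit and 42.3% of the small-subunit genes, against 55.0% of all genes tested. They took 41.3% of the genes shared with bacteria and 38.7% of the mitochondria-specific genes. These splits were not tested against each other. The paralogues of bacterial bS18, which occupy different places in the ribosome, were not called, with log2 differences of 0.02 for Mrps18a, -0.00 for Mrps18b and -0.00 for Mrps18c (edgeR adjusted p = 0.412, 0.947 and 0.996). Of the 26 members with the ETS letters in the promoter window 2 were higher and 9 lower, and of the 43 without them 13 were higher and 7 lower, a split chosen after its values were seen and given with no test. With the NRF1 letters 3 of 13 were higher and 4 lower, and 12 and 12 of the 56 without them. With the YY1 letters 2 of 12 were higher and 2 lower, and 13 and 14 of the 57 without them. Of all genes tested 24.4% were higher and 30.6% lower, and shares of all genes by promoter letters are not given here. All splits in this paragraph are those of the main fit, and the balance of directions changed with the scaling and covariates, as given above.

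Many members overlap another gene. Of the 36 members that overlap another annotated gene, 3 were higher and 6 lower in males, and of the 42 that do not, 12 were higher and 11 lower. Among other protein-coding genes 60.6% of those that overlap another gene and 60.2% of those that do not were called. Overlap was more common among the members (46.2%) than among all protein-coding genes of the table (34.4%), and its part in the calls was not tested.

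Mrpl23 alone gained a call when near-identical and overlapping copies were summed with their members, an alternative chosen after the data were seen. On its own Mrpl23 had a log2 difference of 0.00 (SE 0.15, edgeR adjusted p = 0.993), and Mrpl23-ps1 one of -0.12 (edgeR adjusted p = 0.0608). For the sum the female median was 28.3 CPM and the male median 26.1 CPM, with a log2 difference of -0.10 (SE 0.020, edgeR adjusted p = 5.22e-06).

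The sign of each sex difference was also read within generations and blocks, which hold the same animals that gave the calls, so the agreement is a description and no separate support. Of the 32 called members, 29 had the same sign in each of the 5 generations fitted alone and 23 in each of the 5 library blocks. Of the 46 not called, 4 and 2 did. Over 11 fits of the whole series, which differed in scaling, filter, covariates, tool, the libraries at odds with their sex and the summing of copies, 21 of the 32 members were called every time. Mrpl14, Mrps9, Mrpl20 and Mrpl45 were among these in the male direction.

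Few members differed between generations. Only Mrpl48, an mL48 protein of the central protuberance, was called (edgeR adjusted p = 0.0416), which is 1 of 78 members against a background of 7.56% of all genes. Its mean level by generation was 32.8, 32.1, 32.0, 33.8 and 32.6 CPM in females and 32.9, 34.0, 31.6, 33.9 and 32.7 CPM in males, in the order 17, 18, 19, 21 and 23. The highest and lowest fitted generations, 21 and 19, differed by 0.09 on the log2 scale. The call was lost in 6 alternatives and its adjusted p was 0.0491 without the libraries at odds with their labelled sex. At an unadjusted p under 0.05 there were 5 members, against 19.8% of all genes. The range over generations had a median of 0.044 log2 units in the members and 0.112 in all genes. It was 0.046 in nuclear genes of oxidative phosphorylation, 0.045 in mitochondrial translation factors and 0.062 in cytosolic ribosomal protein genes, with 0 called in each. Messenger RNAs of the mitochondrial genome had 1 call and a median of 0.115.

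No sex difference of a member was called as changing with generation. The interaction of sex and generation called 0 of 78 members by edgeR, with a background of 0.531% of all genes. At an unadjusted p under 0.05 there were 2 members by edgeR, where 5.97% of all genes were, and 1 by limma, where 4.62% were, and the lowest edgeR adjusted p was 0.413.

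Library blocks, in contrast, moved most members. Fitted as a term in edgeR, the block was called for 62 of 78 members (79.5%), against a background of 47.4% of all genes, while the size of the differences was smaller than in all genes, with a median range of 0.124 log2 units against 0.180. The block was also called for 93.7% of nuclear genes of oxidative phosphorylation, with a median range of 0.156 log2 units. It was called for 84.6% of mitoribosome assembly factors, 80.0% of mitochondrial translation factors and 63.75% of cytosolic ribosomal protein genes. Among regulators of mitochondrial biogenesis it was called for 36.4%. The members named here for the block were chosen after their values were seen. Mrps24 (uS3m), at the entry of the messenger RNA channel, had the widest range, 0.74 log2 units (edgeR adjusted p = 1.38e-95), with block medians of 12.4, 16.95, 20.4, 19.3 and 21.7 CPM. For Mrps30 (mL65) the range was 0.48 log2 units and the block medians were 14.7, 16.2, 20.7, 20.5 and 19.95 CPM. Mrpl54 followed with 0.39, Mrps34 with 0.38 and Mrpl28 with 0.35 log2 units. With the block as a covariate 34 members were called for sex, 32 of them shared. Every block also held animals of every generation, and 43 to 54 females.

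Members rose and fell together from animal to animal, but loosely. Correlations are given on VST residuals after sex and generation, over all libraries, whose values share a normalisation and the library blocks, as a description. The median Pearson r over all 3003 pairs of members was 0.191, and 92.0% of pairs were above 0, in a range from -0.49 to 0.76. Over the 2926 pairs without Mrpl23 the median was 0.197, and 92.4% were above 0, while the medians by subunit and class below include it. Within the large subunit the median was 0.218, within the small subunit 0.157 and between them 0.188. Mitochondria-specific genes had a median of 0.230 among themselves and genes shared with bacteria 0.171. The leading principal component held 27.6% of the members' variance, while that of all genes held 9.52% of theirs.

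Mrpl12 followed the other members most closely. It encodes bL12m, the stalk protein that recruits translation factors, and its r with the mean of the others was 0.80 (Spearman's rho 0.77). Next came Mrps7 (uS7m, of the small-subunit head) at 0.79, Mrpl37 at 0.79, Mrpl21 (bL21m) at 0.75 and Mrpl2 (uL2m, near the peptidyl transferase centre) at 0.74. At the other end stood Mrpl1 at -0.14, Mrpl3 (uL3m) at 0.06, Mrpl50 at 0.07 and Mrps17 (uS17m) at 0.12. Members with the ETS letters had a median r of 0.59 with the others and those without 0.40, likewise a split seen after the values. The medians were 0.51 and 0.48 with and without the NRF1 letters, and 0.53 and 0.49 with and without the YY1 letters.

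**Figure D4:**
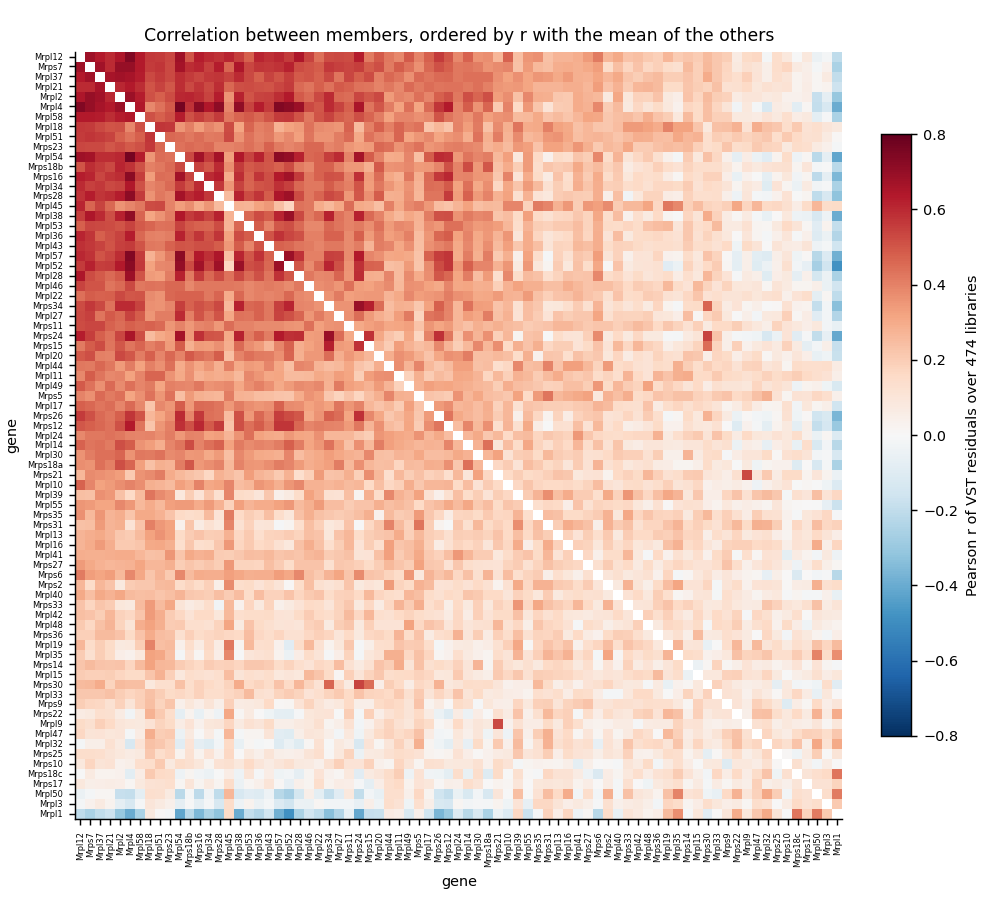
Pearson r between each pair of 77 genes (Mrpl23 is left out) over all libraries, computed on VST residuals after sex and generation; genes on both axes are ordered by their r with the mean of the others, and colour runs from blue (negative) to red (positive). Most of the map is pale red, with a median r of 0.197, and the genes at the low end, such as Mrpl1, hold most of the blue cells.

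Pairs that lay close on a chromosome had higher correlations. The 24 pairs within 4 Mb of each other had a median r of 0.387, against 0.191 for the rest. Among them were Mrpl52 and Mrpl57 at 0.68, Mrpl9 and Mrps21 at 0.53, and the overlapping Mrps11 and Mrpl46 at 0.44. Genotypes were not used, and their part in these correlations was not tested. The highest r of any pair was that of Mrpl4 and Mrpl54 at 0.76, and the lowest that of Mrpl52 and Mrpl1 at -0.49. For 21 of the 77 members other than Mrpl23 (27.3%) the tested gene with the strongest r lay within 4 Mb, beside 26.4% of other protein-coding genes.

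The closest companions of the set were respiratory chain genes. The non-members with the highest r with the mean of the members were Ndufb10 (complex I) at 0.85, Uqcr10 (complex III) at 0.83, Ndufs8 (complex I) at 0.82, Atp5o (ATP synthase) at 0.82 and Uqcr11 (complex III) at 0.81. Over pairs, the median r of members with nuclear genes of oxidative phosphorylation was 0.297, above that of members with each other. It was 0.081 with cytosolic ribosomal protein genes and -0.012 with all other genes. The r of single members with the mean of the oxidative phosphorylation genes was above 0 in 76 of 77, leaving out Mrpl23, with a median of 0.472.

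Messenger RNAs of the mitochondrial genome, which these ribosomes translate, did not follow the members in this way. The median r of member pairs with them was -0.045. Without Mrpl23, single members had r below 0 with their mean in 53 cases and above 0 in 24, from -0.60 for Mrpl52 to 0.70 for Mrpl1, with Mrpl50 at 0.45 and Mrpl35 at 0.35. Mrpl1, the member least like the others, was thus the most like the mitochondrial transcripts. Across the same 77 members, r with the oxidative phosphorylation mean and r with the mitochondrial transcripts had an r of -0.79, where genes are not independent replicates. Over libraries, the oxidative phosphorylation mean itself had an r of -0.205 with the mean of the mitochondrial transcripts, so a value below 0 was not particular to the members. Annotated exon length had a Spearman's rho of -0.29 with a member's r with the others and of 0.44 with its r with the mitochondrial transcripts, over the same 77 genes.

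Marker scores and technical measures moved with the mean of the members to a limited degree. Its r was 0.38 with the fast-fibre marker score, 0.07 with the slow-fibre score, 0.14 with the erythroid score, 0.13 with the endothelial score, -0.11 with the Schwann cell score, -0.12 with the macrophage score, -0.26 with the adipocyte score, -0.25 with the fibro-adipogenic score and 0.11 with the log2 total count, and the library block held 8.28% of its variance. Of 9 fast-fibre markers 5 were higher and 2 lower in males (median log2 difference 0.05), with sums of 101191 to 191168 CPM in females and 105377 to 181882 CPM in males. Of 5 erythroid markers 3 were higher and 0 lower, and 1 of 8 macrophage and 1 of 5 Schwann cell markers was lower. With total counts alone 3 fast-fibre markers were higher and 3 lower, 1 erythroid marker was higher, and 3 macrophage and 4 Schwann cell markers were lower. All 5 endothelial markers were higher in males (median log2 difference 0.13), with sums of 138.0 to 310.8 CPM in females and 149.9 to 301.02 CPM in males. All 9 slow-fibre markers were lower in males (median log2 difference -0.45), with summed levels of 656.9 to 10433 CPM in females and 961.5 to 8508 CPM in males. Of 8 adipocyte markers 7 were lower and 1 higher in males, with sums of 92.4 to 1549 CPM in females and 104 to 889 CPM in males. All 5 fibro-adipogenic markers were called, 2 higher and 3 lower (median log2 difference -0.12), with sums of 429.002 to 1560 CPM in females and 567.4 to 1501 CPM in males. Of 4 brown adipocyte markers 2 were lower, Ucp1 at a log2 difference of -3.79 and Cidea at -1.20, and Cox7a1 and Cox8b were higher, at 0.14 and 0.07. Only 1 of 3 hepatocyte markers was tested, and it was lower in males (log2 difference -0.83). It had 0 to 763.4 CPM in females and 0 to 19.8 CPM in males. The part of these markers in the sex differences of the members was not tested beyond the fit with marker scores given above. The brown adipocyte and hepatocyte markers had no score in that fit.

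Genes that act with these proteins were read against the same background, 55.0% of all genes called. Of 5 ribosomal proteins known by other names, 3 were lower in males, namely Gadd45gip1 (mL64) at a log2 difference of -0.12 (SE 0.032, edgeR adjusted p = 0.000392), Dap3 (mS29) at -0.08 and Aurkaip1 (mS38) at -0.04. Of 15 translation factors 3 were higher and 3 lower (40.0% called). Pdf, which removes the formyl group from new peptides, was at -0.15 (SE 0.015, edgeR adjusted p = 2.92e-20), Mtif3, an initiation factor, at 0.11, and Mtfmt, which formylates the initiator transfer RNA, at 0.10. With total counts alone 5 of the 5 proteins with other names were lower, and 2 translation factors were higher and 6 lower. With marker scores 4 of the 5 were lower, and 3 translation factors were higher and 4 lower.

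Of 26 assembly factors 7 were higher and 12 lower, or 73.1% called. Rpusd3, a pseudouridine synthase, was at 0.30 (SE 0.027, edgeR adjusted p = 3.18e-24). Tfb1m, which methylates the small-subunit ribosomal RNA, was at -0.18, and the GTPase Noa1 at -0.16. Of 21 genes of mitochondrial RNA handling 3 were higher and 6 lower (42.9% called), such as Hsd17b10, a subunit of the mitochondrial RNase P, at -0.14, Mterf1a at -0.12 and the exonuclease Rexo2 at -0.10. Mterf1a had a mean of only 0.722 CPM in females and 0.663 CPM in males. With total counts alone 3 genes of RNA handling were higher and 12 lower, and 5 assembly factors were higher and 14 lower. With marker scores these were 3 and 6, and 6 and 14.

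For comparison, the cytosolic ribosome and the respiratory chain are given with their splits under other fits. Of 80 cytosolic ribosomal protein genes, 53 were lower and 1 higher in males, with a median log2 difference of -0.11, for example Rpl27 at -0.35, Rpl39 at -0.21 and Rpl3 at -0.21 (SE of Rpl3 0.025, edgeR adjusted p = 7.85e-16). With total counts alone 64 were lower and 0 higher, and with marker scores 51 and 1. Many genes of this family have processed copies, and their counts are uncertain for that reason. Of 79 nuclear genes of oxidative phosphorylation 25 were higher and 14 lower, with Ndufs4 of complex I at 0.14, Cox7a1 of complex IV at 0.14 and Uqcrc1 of complex III at 0.13, but with total counts alone 11 were higher and 33 lower and with marker scores 8 and 31. The 13 mitochondrial messenger RNAs had 8 higher and 0 lower, with a median of 0.11, led by mt-Nd2 at 0.16, mt-Nd1 at 0.15 and mt-Co1 at 0.14, and 6 and 10 were higher and 0 lower in those fits.

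Regulators of mitochondrial gene expression were called in both directions, with 4 higher and 3 lower of 11. The coactivator Ppargc1a was at 0.23 (SE 0.061, edgeR adjusted p = 0.000653) and Ppargc1b at -0.27, while Myc was at -0.41. Of 12 genes used as a measure of mitochondrial mass 5 were higher and 4 lower, with the import receptor Tomm20 at 0.12 and the outer-membrane channels Vdac1 and Vdac2 at 0.11 and 0.10. With total counts alone 3 regulators were higher and 4 lower, and 5 genes of the mass list were higher and 5 lower. None of these lists was tested against the members.

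**Figure D5:**
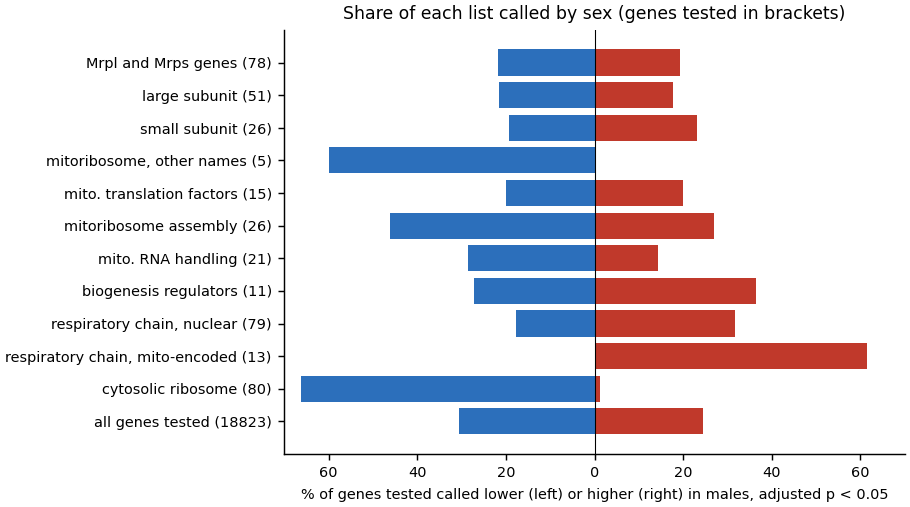
Percentage of genes in each list called lower (left) or higher (right) in males by edgeR at adjusted p under 0.05, with the number of genes tested in brackets. The 78 members have 21.8% lower and 19.2% higher (5 higher against 32 lower with total counts alone), cytosolic ribosomal protein genes 53 of 80 lower and 1 higher, and mitochondrial messenger RNAs 61.5% higher.

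Several members share a promoter region with a gene read in the opposite direction. Such head-to-head partners, protein-coding genes whose annotated starts lie within 1000 bases and do not overlap, were found for 18 members (23.1%), against 8.88% of protein-coding genes. Mrpl46 and Mrps11, whose annotated starts cross, are not among them. Mrpl54 and Apba3, with starts 26 bases apart, had an r of 0.74 over all libraries, Mrpl2 and Klc4 0.52, and Mrps12 and Sars2, the mitochondrial seryl-tRNA synthetase, 0.51. Mrpl30 and Mitd1, 66 bases apart, had an r of -0.41. Mrpl57 and Ska3 (-0.17) and Mrpl10 and Lrrc46 (-0.15) also lay below 0. In all, r was above 0 in 14 of the 18 pairs and below 0 in 4, with a median of 0.20.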

How the data were processed

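RNA sequencing of skeletal muscle from 474 Diversity Outbred mice was analysed from 2 tables of the whole series. The authors aligned reads to a single transcriptome that pools the founder strains, divided them among genes and alleles with EMASE, run through GBRS, and deposited expected counts per gene, of which 68.6% were whole numbers within 1e-06. The authors also deposited variance-stabilised values (VST, a log2-like score made with DESeq2), used here for correlations and for limma. The methods of the study name a filter on rarely read transcripts and a batch correction, and the sources used here do not say which deposited values carry the latter. All sample columns were used. Coordinates are those of the files, on GRCm38, and those of the 78 members equal GENCODE M21.

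Expected counts were rounded and filtered (filterByExpr, minimum count 10, over 10 groups of sex and generation, 18823 genes kept and 1789 removed), scaled by TMM and fitted with edgeR 4.0.16 (R 4.3.3) with sex and generation as terms. The quasi-likelihood test was adjusted by Benjamini-Hochberg over all genes. The interaction and the library block were fitted as added terms. Generation was read from the number in the labels. The alternatives were DESeq2 1.42.0 and its size factors, total counts alone, other filters, limma 3.58.1 on the VST, the block or 8 marker scores as covariates, single generations, sexes and blocks, and the summing of copies, which was added after the data were seen. CPM are TMM-scaled. Copies were found with blastn 2.17.0+ on GENCODE M21 transcripts. The edgeR fit for sex was tested on simulated counts. It recovered 14% of genes changed 1.05-fold, 40% at 1.1-fold, 76% at 1.25-fold and 92% at 1.5-fold, and called 0.038% of unchanged genes. Small sex differences could thus be missed. The fits for generation, interaction and block and the alternatives were not tested in this way. Total counts of 35.9 to 165.7 M limit precision at low levels.

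The named genes were the 8 called members with the largest difference in each direction, called generation and interaction members, the 5 highest and 5 lowest in level per length, residual SD and correlation, the Mrps18 trio, the 3 largest called differences of each list and the 5 non-members most like the members. The members and lists were chosen with earlier results of these data known.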

Additional observations from a re-analysis of the deposited data

How the results depend on the processing

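For the 16 members named by sex, 154 of 160 values from alternatives over the whole series kept their direction and their side of the threshold, 6 kept the direction alone and 0 reversed. In single generations or blocks, which have fewer animals, 67 of 160 kept both, 89 kept the direction alone and 4 reversed. The reversals were Mrpl1 in generation 18 (-0.019), block 1 (-0.026) and block 2 (-0.0075), and Mrpl34 in block 5 (0.071, against -0.10). The cause was not tested.

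The count of members called for sex (32) was 7, 8, 8, 12 and 8 in generations 17, 18, 19, 21 and 23 alone, and 7, 8, 11, 14 and 12 in blocks 1 to 5 alone, where 23.3% to 27.6% and 19.4% to 28.6% of all genes were called. The count higher in males (15) was 5 with total counts alone and with marker scores, 4, 4, 2, 2 and 3 by generation, and 1, 0, 4, 4 and 11 in blocks 1 to 5. The count lower in males (17) was 32 with total counts alone, 28 with marker scores, 3, 4, 6, 10 and 5 by generation, and 6, 8, 7, 10 and 1 by block. In block 5 10.7% of all genes were higher and 12.3% lower, and in blocks 1 to 4 9.15% to 12.9% and 10.3% to 15.7%. The 62 genes of translation, assembly and RNA handling had 34 calls, and 10, 12, 9, 17 and 13 by generation and 12, 11, 17, 15 and 17 by block. The generation count of 1 (Mrpl48) fell to 0 with total counts alone, the block or marker scores as covariates, females alone, males alone and limma, with lowest adjusted p-values of 0.0762, 0.0637, 0.0615, 0.303, 0.123 and 0.0755. In the alternatives that kept the call its adjusted p was 0.0369 to 0.0491.

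The median r between members was 0.158 to 0.213 under other scales, covariates and subsets. No paired analysis was possible because each animal gave 1 library and the sexes share no replicate numbers that pair them. No member was lost to the count filter. A member that was not called was not shown to be equal in the sexes.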
